A study of Mus musculus with 16 samples.

Results

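The genes described here are those of 9 subunits of the NADPH oxidases, the enzymes that pass electrons from NADPH across a membrane to oxygen. They were chosen by symbol (Nox1, Nox4, Cybb, Cyba, Ncf1, Ncf4, Noxa1, Noxo1 and Rac2), and each matched 1 of the 54532 gene entries of the expression table. RNA was sequenced from aortas of male mice that the protocol gives as Apoe-/-, which lack apolipoprotein E, on strain C57BL/6j, aged 8 to 12 weeks. After implantation of an Alzet mini-osmotic pump, mice received saline or the vasoconstrictor hormone Ang II (angiotensin II) at 1000 ng/kg/min, for 7 days. Each group has 8 libraries. The adventitia, the outer coat of the vessel, was taken off in both groups. The library names begin with WT while the protocol gives Apoe-/- for both groups. In the saline group Apoe itself was listed at 14.7 to 110 FPKM, in the Ang II group at 6.81 to 17.2 FPKM, and a gene total does not show which part of the gene was read. FPKM are fragments per kilobase of transcript, scaled to the total of the library, so levels of different genes can be set side by side, though only roughly. For most genes the length behind the values was that of the mean annotated transcript, which need not be the one expressed. Which mouse stands behind a sample is not in the labels, so the p-values below reflect sample-to-sample spread, part of which may be technical.

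Each oxidase has a catalytic subunit in the membrane. Nox1, Nox4 and Cybb (gp91phox, also called Nox2) encode 3 of them, and Cyba encodes p22phox, the membrane partner that all 3 need. The phagocyte enzyme built on Cybb stays silent until cytosolic subunits join it. Ncf1 encodes its organizer p47phox, Ncf4 encodes p40phox and Rac2 a GTPase found mainly in blood cells. Noxo1 and Noxa1 encode the organizer and activator that do this work for Nox1. Nox4 needs no cytosolic subunit and releases mainly hydrogen peroxide. In the arterial wall, Nox1 and Nox4 are the forms usually assigned to smooth muscle, and Cybb, Ncf1, Ncf4 and Rac2 are typical of macrophages and neutrophils.

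The promoters of 5 subunit genes are shown because their genes fell into different classes of change below. Sequences are from RefSeq (GRCm38.p6), cover 250 bases before to 50 bases from the RefSeq start, and are written 5′ to 3′ on the strand of the gene. Capitals mark matches, on either strand, to 1 of 6 motifs: GAGGAA (the core that the blood cell factor PU.1 binds), CCAAT (the CCAAT box), GGGCGG (the GC box), TGANTCA (the AP-1 site), TATAAA (the TATA box) and the CArG box of serum response factor.
Cybb: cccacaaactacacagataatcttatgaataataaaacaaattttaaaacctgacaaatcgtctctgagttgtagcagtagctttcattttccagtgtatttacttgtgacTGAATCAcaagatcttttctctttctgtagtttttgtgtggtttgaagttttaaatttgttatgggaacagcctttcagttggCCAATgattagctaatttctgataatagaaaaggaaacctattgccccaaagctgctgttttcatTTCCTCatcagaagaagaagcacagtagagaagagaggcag
Ncf1: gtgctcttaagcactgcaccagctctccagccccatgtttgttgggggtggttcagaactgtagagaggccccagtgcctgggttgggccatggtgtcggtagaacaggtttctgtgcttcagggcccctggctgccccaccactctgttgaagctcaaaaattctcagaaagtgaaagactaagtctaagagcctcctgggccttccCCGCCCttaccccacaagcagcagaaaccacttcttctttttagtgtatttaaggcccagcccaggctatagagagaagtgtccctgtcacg
Nox4: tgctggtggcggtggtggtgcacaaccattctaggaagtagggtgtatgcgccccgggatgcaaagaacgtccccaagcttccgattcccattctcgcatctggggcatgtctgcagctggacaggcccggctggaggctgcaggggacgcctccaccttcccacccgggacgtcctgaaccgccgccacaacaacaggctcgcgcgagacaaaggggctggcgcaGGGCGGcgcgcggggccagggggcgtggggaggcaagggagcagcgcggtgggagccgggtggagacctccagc
Cyba: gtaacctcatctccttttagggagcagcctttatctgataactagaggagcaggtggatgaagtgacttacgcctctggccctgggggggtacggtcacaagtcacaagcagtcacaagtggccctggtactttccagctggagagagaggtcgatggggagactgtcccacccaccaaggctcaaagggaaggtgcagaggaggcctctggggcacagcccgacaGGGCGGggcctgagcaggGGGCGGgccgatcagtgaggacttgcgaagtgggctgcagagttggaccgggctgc
Noxo1: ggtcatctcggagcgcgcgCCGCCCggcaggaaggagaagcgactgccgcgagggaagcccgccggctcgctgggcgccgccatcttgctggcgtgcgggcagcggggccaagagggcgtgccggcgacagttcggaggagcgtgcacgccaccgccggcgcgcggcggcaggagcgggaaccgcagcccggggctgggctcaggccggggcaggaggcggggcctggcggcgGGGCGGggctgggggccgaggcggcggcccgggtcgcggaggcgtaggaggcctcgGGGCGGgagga
The RefSeq start is not always the outer end of the gene model used for the coordinates below: it lies 18447 bases inside that model for Cybb and 553 bases inside it for Nox4, and within 10 bases of its end for Cyba, Ncf1 and Noxo1. The windows lie at chrX:9469275-9469574 (minus strand) for Cybb, chr5:134229576-134229875 (minus) for Ncf1, chr7:87246399-87246698 (plus) for Nox4, chr8:122432891-122433190 (minus) for Cyba and chr17:24695984-24696283 (plus) for Noxo1. Of 32851 mouse promoter windows of this length, 28.3% held GAGGAA, 35.7% GGGCGG, 37.4% CCAAT, 7.81% TGANTCA, 13.6% TATAAA and 1.63% a CArG box. The window of Cybb held GAGGAA once, as TTCCTC at positions 10 to 15 counted from 1 at the start base, together with 1 CCAAT and 1 TGANTCA. That of Ncf1 held 1 GGGCGG and that of Nox4 held 1, while Cyba had 2 and Noxo1 had 3. GAGGAA was not limited to Cybb among the members: the window of Nox1, not shown, held it at positions -23 to -18. The window of Noxa1, also not shown, held CCAAT. Base composition differed widely: G and C made up 35.3% of the window of Cybb, 54.0% of Ncf1, 60.7% of Cyba, 68.3% of Nox4 and 80.3% of Noxo1. A match is a string of letters and says nothing of binding.

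The read totals behind the FPKM were inferred from the values themselves. They came to 14606864 to 17590088 in saline libraries and 15779125 to 19988730 in Ang II libraries. On that scale 1 read in a transcript of 1 kilobase was worth 0.05003 to 0.0685 FPKM. Over the 15007 genes with a mean of at least 0.5 FPKM, limma called 9.54% higher and 24.9% lower with Ang II at an adjusted p under 0.05, and the median log2 fold change was -0.12. After scaling each library by its median ratio, that median was -0.0031, with 14.9% higher and 14.1% lower. The other settings named below gave 15.1% higher and 15.8% lower (quantile normalization), 4.12% and 10.2% (no filter), 9.42% and 23.5% (replicate number as a block), 5.38% and 14.3% (macrophage and monocyte score), 4.86% and 11.3% (white adipocyte score), 8.43% and 26.6% (without Saline 7 and Saline 8) and 9.4% and 24.7% (voom on recovered reads). Saline 8, Saline 7 and Saline 2 stood apart on the first principal component, at -109, -67.6 and -47.5, against -9.47 to 37.1 in the other libraries. The smooth muscle markers Acta2, Myh11, Cnn1, Smtn, Lmod1 and Synpo2 were abundant in all 16 libraries, with a sum of 8806 to 15081 FPKM in the saline group and 6237 to 10666 FPKM in the Ang II group.

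Nox4 and Cyba were the abundant subunits of the wall, whereas Nox1 and Noxa1 were at the bottom of the scale and the other 5 members lay between. Cybb and Ncf1 rose with Ang II and Cyba and Noxo1 fell, while Nox4, Ncf4 and Rac2 did not pass the test. Of the 7 members with a mean of at least 0.5 FPKM, 2 of 7 were thus higher and 2 of 7 lower, against the 9.54% and 24.9% of all genes tested given above. Nox1 and Noxa1 lay below that level and were not in this test.

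**Figure D1:**
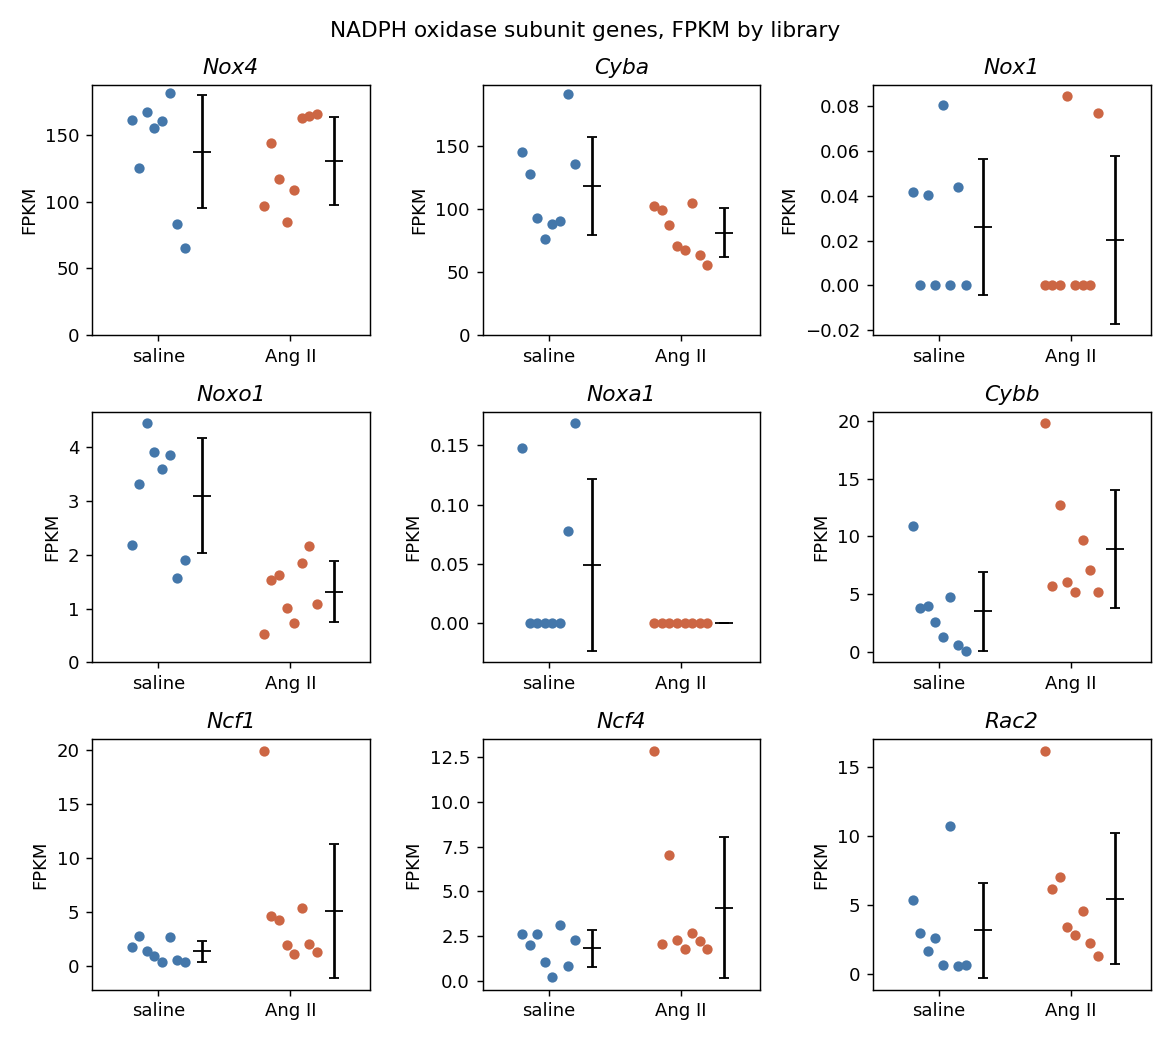
FPKM of each subunit gene in the 8 saline (blue) and 8 Ang II (orange) libraries, in the order of their replicate numbers, with the group mean and SD as a black bar; each panel has its own linear axis in FPKM. Nox4 and Cyba reach 181 and 191 FPKM, whereas Nox1 and Noxa1 stay under 0.17 FPKM in every library.

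Nox4 (ENSMUSG00000030562, chromosome 7, 87246096 to 87398710, plus strand, GRCm38), the constitutively active oxidase, was the most abundant catalytic subunit in every library. Its level ran from 65.0 to 181 FPKM with saline (median 158) and from 85.0 to 165 FPKM with Ang II (median 130). The lowest saline values were those of Saline 7 (83.0 FPKM) and Saline 8 (65.0 FPKM), which lay below every Ang II library, and the groups otherwise overlapped. The means were 137 ± 42.4 and 130 ± 32.6 FPKM (SD, n = 8 each), above those of 94.9% and 95.6% of the genes tested. The log2 fold change was -0.04 with a 95% interval of -0.49 to 0.41 (limma adjusted p = 0.901), so a change of either sign within that interval could not be told from none. The sign turned with the scaling, to 0.11 after median ratio scaling (limma adjusted p = 0.694), and without Saline 7 and Saline 8 the value was -0.31 (limma adjusted p = 0.129).

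Smooth muscle markers moved in the same libraries, with 3 of 6 lower and 0 higher with Ang II, beside 24.9% and 9.54% of all genes tested. The contractile myosin gene Myh11 went from 1561 ± 275 to 852 ± 169 FPKM (log2 fold change -0.88, limma adjusted p = 0.000181). The ratio of Nox4 to Myh11 FPKM within a library ran from 0.0502 to 0.108 with saline (median 0.0967) and from 0.0943 to 0.256 with Ang II (median 0.149). Apart from Ang II 4, each Ang II library was above all saline libraries in this ratio. Myh11 had the largest fall of the 6 markers, while Nox4 was at -0.04. Smtn and Lmod1 were at -0.63 and -0.57 (limma adjusted p = 0.00501 and 0.00349). Acta2, Cnn1 and Synpo2 were at -0.32, -0.33 and -0.35, without a call (limma adjusted p = 0.113, 0.152 and 0.219). The ratio thus describes Nox4 beside Myh11 only, and ratios to the other markers were not taken. In bulk tissue, fewer cells of a type and less RNA per cell cannot be told apart.

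Cyba (ENSMUSG00000006519, chromosome 8, 122424776 to 122432930, minus strand), whose protein p22phox stabilizes the catalytic subunits, held 76.1 to 191 FPKM with saline (median 110) and 55.7 to 105 FPKM with Ang II (median 79.0). The highest saline libraries were Saline 7 (191 FPKM) and Saline 1 (145 FPKM), and all 8 Ang II libraries lay below the saline median. Cyba fell from 118 ± 38.8 to 81.4 ± 19.3 FPKM, with a log2 fold change of -0.51 (SE 0.19, limma adjusted p = 0.0447). The call was close to the threshold. It was lost after median ratio scaling (-0.36, limma adjusted p = 0.171), without Saline 7 and Saline 8 (-0.34, limma adjusted p = 0.136) and without any 1 of 9 single libraries (Saline 1, 2, 7 and 8 and Ang II 3, 4, 5, 7 and 8). Its range overlapped that of Nox4 in both groups, and no other member reached either of them in any library.

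Nox1 (ENSMUSG00000031257, chromosome X, 134086421 to 134221956, minus strand), the other oxidase usually assigned to smooth muscle, was close to undetected. Scaled back to whole reads, it had 0 to 2 reads a library, 5 reads in all with saline and 4 with Ang II. It was at 0 in 4 saline and 6 Ang II libraries, where a count of 0 still allows a level of up to 0.106 to 0.145 FPKM (3 reads, counting error only). The highest values were 0.0804 FPKM in Saline 5 and 0.0843 FPKM in Ang II 4. Of its exon bases 12.1% overlap Cstf2 on the other strand. At this depth no difference between the groups could be seen for Nox1, and of the pair named as wall oxidases only Nox4 was measurable.

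Of the partners of Nox1, Noxa1 was close to undetected and Noxo1 was measured. Levels of Noxo1 were near those of the phagocyte subunits with saline and mostly below them with Ang II. Noxa1 (ENSMUSG00000036805), the activator of Nox1, had 4, 2 and 4 reads in Saline 1, Saline 7 and Saline 8 and none in the other 13 libraries, where 0 reads allow up to 0.0940 to 0.129 FPKM. Noxo1 (ENSMUSG00000019320, chromosome 17, 24696234 to 24700529, plus strand), the organizer of Nox1, ran from 1.57 to 4.44 FPKM with saline (median 3.45) and from 0.533 to 2.15 FPKM with Ang II (median 1.31). The lowest saline libraries were Saline 7 and Saline 8 at 1.57 and 1.90 FPKM, the other 6 saline libraries were above every Ang II library, and 5 Ang II libraries were below every saline library. Noxo1 fell from 3.09 ± 1.06 to 1.31 ± 0.567 FPKM, with a log2 fold change of -0.81 (SE 0.19, limma adjusted p = 0.0033). It kept its direction and call when any 1 library was left out (-0.90 to -0.74) and in each of the other 10 fits.

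The level of Noxo1 is uncertain, since 70.4% of its exon bases overlap Tbl3, a ribosome assembly gene on the other strand, and whether strand was used in counting is not given in the sources used here. Tbl3 was several times more abundant and also fell, from 22.2 ± 11.6 to 13.4 ± 1.61 FPKM (log2 fold change -0.58, limma adjusted p = 0.0286). Saline 8 was highest for Tbl3 (49.1 FPKM) and among the lowest saline libraries for Noxo1. The part of Tbl3 reads in Noxo1 was not tested.

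Cybb (ENSMUSG00000015340, chromosome X, 9435252 to 9487771, minus strand), the catalytic subunit of phagocytes, held 0.0905 to 10.9 FPKM with saline (median 3.20) and 5.20 to 19.8 FPKM with Ang II (median 6.57). Of the saline libraries 7 lay below every Ang II library, and Saline 1 (10.9 FPKM) was the exception, above all Ang II libraries but Ang II 1 (19.8 FPKM) and Ang II 3 (12.7 FPKM). In reads, Saline 8 had 2 and Saline 7 had 15, against 134 to 463 with Ang II. Cybb rose from 3.51 ± 3.44 to 8.93 ± 5.10 FPKM, with a log2 fold change of 1.36 (SE 0.41, limma adjusted p = 0.0161). Leaving out any 1 library gave 1.12 to 1.61 with the call kept, but without Saline 7 and Saline 8 together the value was 0.89 and just missed the threshold (limma adjusted p = 0.0502).

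Ncf1 (ENSMUSG00000015950, chromosome 5, 134220053 to 134229625, minus strand) encodes p47phox, whose phosphorylation starts assembly of the phagocyte enzyme. It held 0.361 to 2.76 FPKM with saline (median 1.19) and 1.16 to 19.96 FPKM with Ang II (median 3.15). Ang II 1 alone held 19.96 FPKM, the next Ang II library 5.38 FPKM, and 4 Ang II libraries lay within the saline range. Ncf1 rose from 1.37 ± 0.980 to 5.09 ± 6.22 FPKM, with a log2 fold change of 1.04 (SE 0.39, limma adjusted p = 0.0484). Without Ang II 1 it was 0.73 (limma adjusted p = 0.0709), and the call was also lost without any 1 of Saline 1, 3, 4, 5, 7 and 8 and Ang II 2, 3 and 6. Of its exon bases 11.1% overlap Gtf2ird2 on the other strand.

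Ncf4 and Rac2, further cytosolic parts of the phagocyte enzyme, had positive log2 fold changes that did not pass the test. Ncf4 (ENSMUSG00000071715), for p40phox, held 0.206 to 3.14 FPKM with saline (median 2.13) and 1.77 to 12.8 FPKM with Ang II (median 2.27), a log2 fold change of 0.68 (SE 0.34, limma adjusted p = 0.127). Only Ang II 1 (12.8 FPKM) and Ang II 3 (7.01 FPKM) were above every saline library for Ncf4, and the other 6 Ang II libraries were within the saline range. Rac2 (ENSMUSG00000033220), the GTPase, held 0.597 to 10.7 FPKM with saline (median 2.15) and 1.35 to 16.2 FPKM with Ang II (median 3.98), a log2 fold change of 0.72 (SE 0.44, limma adjusted p = 0.207). Ang II 1 was highest for Rac2 and Saline 6 was the second highest of all 16.

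Of 12 macrophage and monocyte markers 4 rose and 0 fell, beside 9.54% and 24.9% of all genes tested. Those that rose were Csf1r, Adgre1, Itgam and Ccr2, and no marker was at 0 throughout. The summed level of the 12 markers ran from 21.9 to 652 FPKM with saline (median 57.8), lowest in Saline 8 and Saline 7 and highest in Saline 1. With Ang II it ran from 65.3 to 717 FPKM (median 235), highest in Ang II 1. Adgre1, which encodes the macrophage antigen F4/80, rose from 1.68 ± 1.92 to 5.77 ± 3.70 FPKM (log2 fold change 1.39, limma adjusted p = 0.0069).

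Neutrophil markers were low apart from a pair of Ang II libraries. Their summed level ran from 0 to 11.7 FPKM with saline and from 3.97 to 134 FPKM with Ang II, with Ang II 1 at 134 FPKM, Ang II 3 at 48.3 FPKM and no other library above 15.9 FPKM. Retnlg had a median of 0 over all libraries, as had Mpo, Elane and Camp, which are made in immature neutrophils. Of the 9 markers 3 were tested, and S100a9 was the 1 that rose. The 6 pan-leukocyte markers, with 0 called in either direction, summed to 12.8 to 104 FPKM with saline and 34.6 to 272 FPKM with Ang II. B cell markers summed to 40.3 FPKM in Saline 6, the saline library highest for Rac2, against at most 5.30 FPKM in any other library. T cell markers summed to at most 10.6 FPKM, in Saline 6 again.

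Within each group of 8, the members were set against a macrophage and monocyte score, the mean z-score of the 12 markers. This gave 14 relations of 7 members in both groups, of which 6 had an adjusted p under 0.05 for Pearson's r and 7 for Spearman's rho (exact permutation tests, two-sided, adjusted over the 14). Cybb followed the score with saline (r = 0.90, exact p = 0.00139, adjusted 0.00486; rho = 0.90, exact p = 0.00456, adjusted 0.016). It did so with Ang II as well (r = 0.88, exact p = 0.00459, adjusted 0.0128; rho = 0.90, exact p = 0.00456, adjusted 0.016). Without the 2 libraries farthest from the median score, r was 0.98 with saline (exact p = 0.00417, n = 6) and 0.67 with Ang II (exact p = 0.165, n = 6). With single libraries left out, the relation with Ang II lost its call without Ang II 1 (r = 0.72, exact adjusted p = 0.129, n = 7).

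The cytosolic subunits were set against the same score, first with Ang II. Ncf1 had r = 0.98 (exact p = 0.000446, adjusted 0.00312) and rho = 0.88 (exact p = 0.00724, adjusted 0.0203), and r = 0.96 without the 2 farthest libraries (exact p = 0.0153, n = 6). Rac2 had r = 0.97 (exact p = 0.000248, adjusted 0.00312) and rho = 0.95 (exact p = 0.00114, adjusted 0.0156), and r = 0.92 without those 2 libraries (exact p = 0.025, n = 6). Ncf4 had r = 0.86 (exact p = 0.00114, adjusted 0.00486) and rho = 0.93 (exact p = 0.00223, adjusted 0.0156), which fell to r = 0.61 without them (exact p = 0.112, n = 6). With saline their r was 0.75, 0.63 and 0.48 (exact adjusted p = 0.0623, 0.161 and 0.31) and their rho 0.81, 0.74 and 0.52 (exact adjusted p = 0.0436, 0.0802 and 0.275).

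For Cyba, Nox4 and Noxo1 the score gave 1 call, that of Cyba with Ang II. Cyba had r = 0.88 with Ang II (exact p = 0.00575, adjusted 0.0134; rho = 0.86, exact p = 0.0107, adjusted 0.025) and r = 0.09 with saline (exact p = 0.831, adjusted 0.831; rho = 0, exact p = 1). Saline 7 and Saline 8, lowest in the score, were among the 3 highest saline libraries for Cyba. Nox4 had r = 0.51 with saline (exact adjusted p = 0.271) and r = -0.31 with Ang II (exact adjusted p = 0.592), with rho of 0.60 and -0.43 (exact adjusted p = 0.206 and 0.381). Noxo1 had r = 0.14 and -0.20 (exact adjusted p = 0.792 and 0.748), with rho of 0.36 and -0.02 (exact adjusted p = 0.454 and 1). Without the 2 farthest libraries of each group, r was -0.66 and 0.92 for Cyba (exact p = 0.157 and 0.0431, n = 6), 0.87 and 0.24 for Nox4 (exact p = 0.0292 and 0.64, n = 6) and 0.86 and 0.43 for Noxo1 (exact p = 0.0431 and 0.376, n = 6), with saline and Ang II in turn, so the saline values of all 3 genes depend on whether Saline 1 and Saline 2 are included. Whether relations differed between the groups was not tested.

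**Figure D2:**
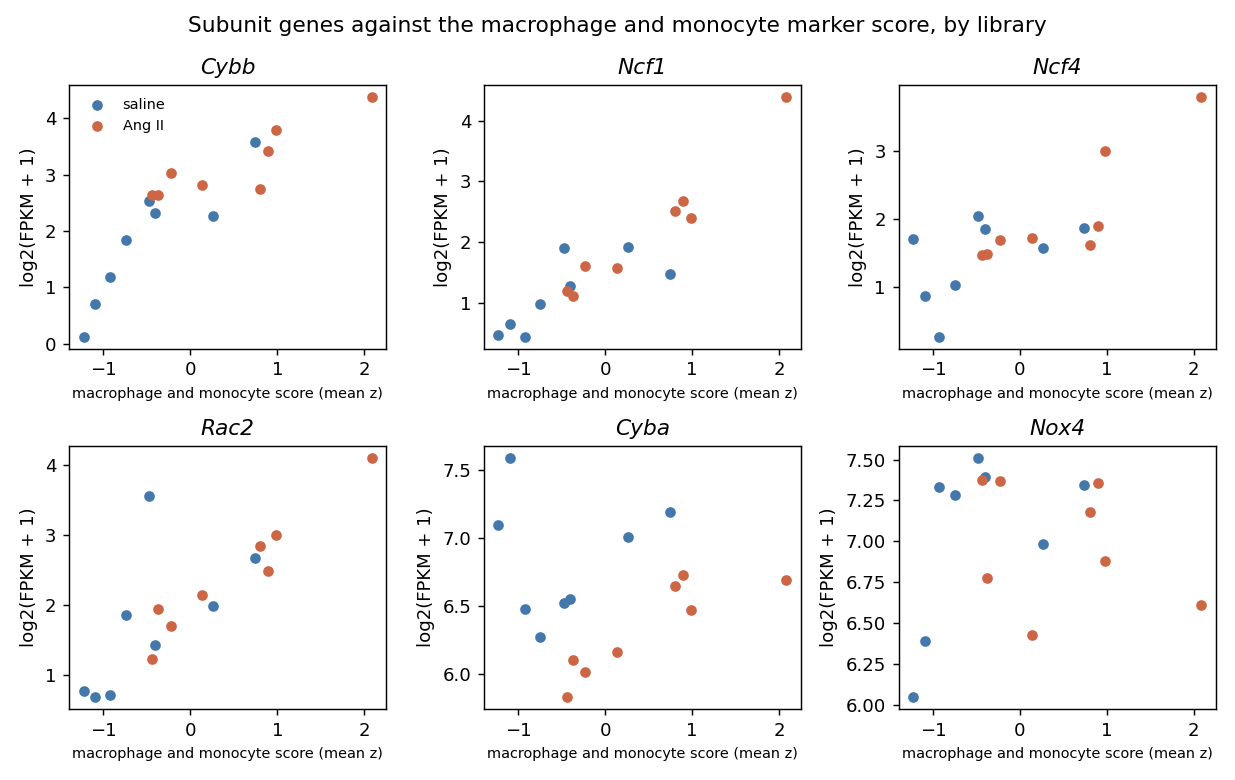
log2(FPKM + 1) of 6 subunit genes (vertical axis) against the macrophage and monocyte score (horizontal axis, mean z-score of 12 markers), with 1 point per library in blue for saline and orange for Ang II. With Ang II, Cybb, Ncf1, Ncf4, Rac2 and Cyba are higher at higher scores, whereas Nox4 is not. Cybb, Ncf1, Ncf4 and Rac2 are highest in Ang II 1 at the far right. With saline, r was 0.51 for Nox4 and 0.48 for Ncf4, neither with an adjusted p under 0.05.

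With the score as a covariate in the fit over all genes, 0 of 7 members were higher and 2 lower, beside 5.38% and 14.3% of all genes. The log2 fold change of Cybb was 0.44 (SE 0.29, limma adjusted p = 0.303) and that of Ncf1 0.08 (SE 0.23, limma adjusted p = 0.835). Ncf4 was at 0.02 (SE 0.30) and Rac2 at -0.22 (SE 0.34), while Cyba fell with -0.74 (limma adjusted p = 0.0208) and Noxo1 with -0.80 (limma adjusted p = 0.0234). The score itself was higher with Ang II, so this fit also takes up part of the treatment difference. It also uses the same slope of the score in both groups. For Cyba r was 0.09 with saline and 0.88 with Ang II, so its value of -0.74 rests on that setting. Of the white adipocyte markers 3 of 7 tested fell (Plin4, Fabp4 and Lipe), beside 24.9% of all genes. Adipoq, Plin1, Cidec and Retn were at -1.26 to -0.50 without a call (limma adjusted p = 0.144 to 0.297). The summed level of the white adipocyte markers was 104 to 351 FPKM with saline and 52.3 to 114 FPKM with Ang II. Plin4 alone had means of 113 ± 36.1 and 53.3 ± 10.2 FPKM, so the sum depends much on that gene. With a white adipocyte score as the covariate, Noxo1 was the only member called (-0.90, limma adjusted p = 0.0119), and Cybb and Ncf1 were at 1.16 and 1.25 (limma adjusted p = 0.117 and 0.0795).

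**Figure D3:**
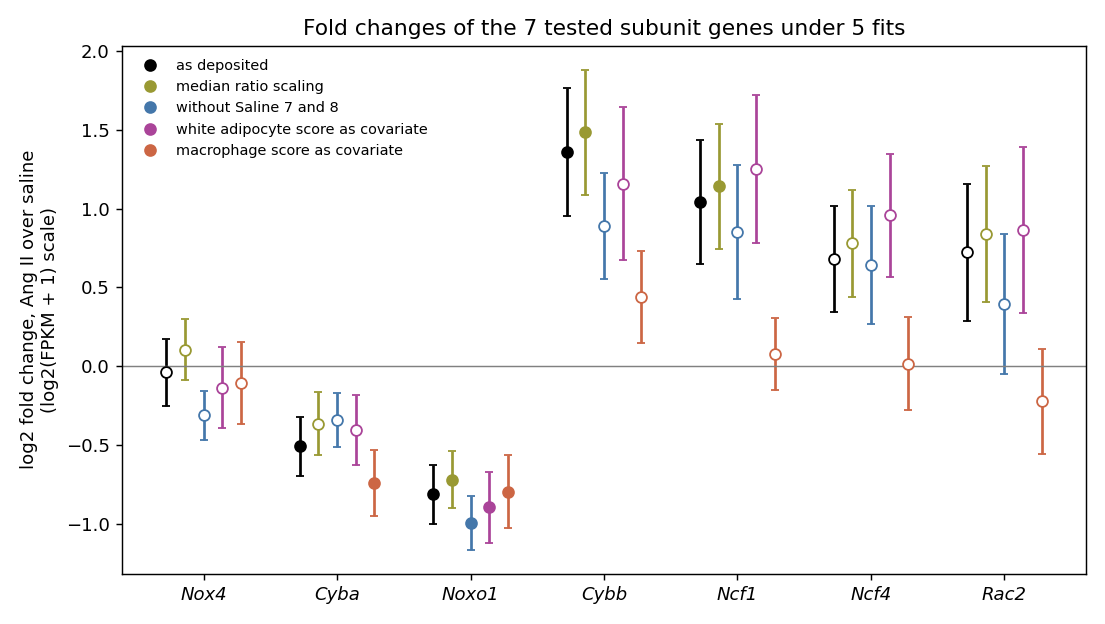
log2 fold change of Ang II over saline on the log2(FPKM + 1) scale (vertical axis) for the 7 tested subunit genes, with the standard error as bars, under 5 fits shown by colour; filled points have a limma adjusted p under 0.05. Noxo1 is filled in all 5 fits, and the points of Cybb, Ncf1, Ncf4 and Rac2 move toward or past 0 with the macrophage score as a covariate.

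Among the catalytic subunits, Nox4 held 93.6% to 99.9% of the summed FPKM of Nox1, Nox4 and Cybb with saline (median 98.0%) and 83.0% to 96.9% with Ang II (median 94.9%). Cybb held 0.139% to 6.34% with saline (mean 2.19% ± 1.95, n = 8) and 3.05% to 17.0% with Ang II (mean 6.83% ± 4.61, n = 8). Saline 1 at 6.34% was the only saline library above the lowest Ang II library, and Ang II 1 at 17.0% and Ang II 3 at 9.84% were the highest of all. Nox1 never exceeded 0.0925%. In the order of levels with saline, Nox4 and Cyba overlapped and stood above all others, Cybb, Rac2, Noxo1, Ncf4 and Ncf1 overlapped with their neighbours at means of 3.51 to 1.37 FPKM, and Noxa1 and Nox1 came last. With Ang II, Ncf1 (5.09 FPKM) and Ncf4 (4.09 FPKM) stood above Noxo1 (1.31 FPKM), with overlapping ranges between these neighbours. Ncf1 was then also above Ncf4, with Ang II 1 at 19.96 FPKM in its mean. Nox1 and Noxa1 changed places at the bottom, where both were close to undetected.

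**Figure D4:**
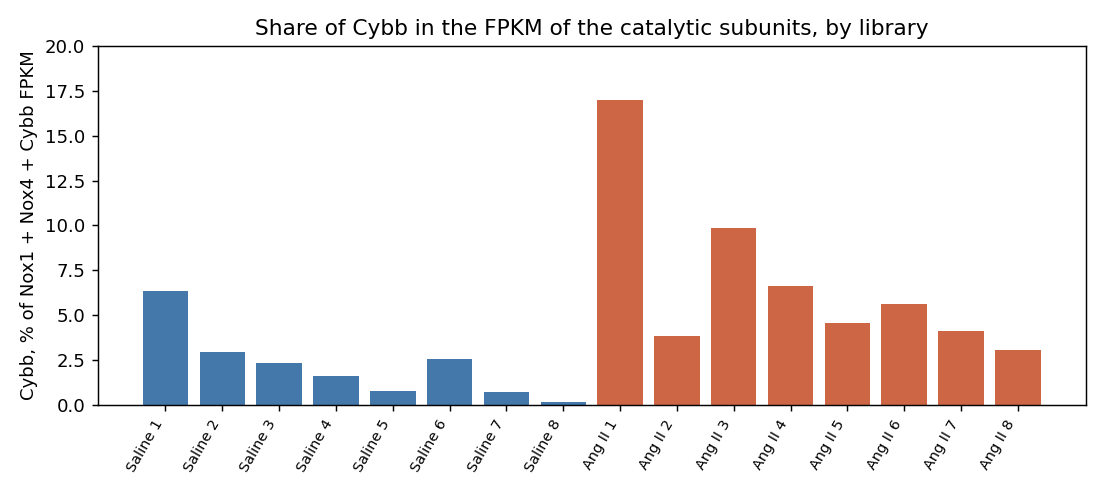
FPKM of Cybb as a percentage of the summed FPKM of Nox1, Nox4 and Cybb (vertical axis, from 0), with 1 bar per library, saline in blue and Ang II in orange. The share is 0.139% to 6.34% with saline and 3.05% to 17.0% with Ang II, with Ang II 1 the tallest bar.

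The genes whose deviations from the group means were most like those of Cybb over the 16 libraries, among 10957 genes with a mean of at least 2 FPKM, were Itgb2 (Pearson's r = 0.95), Lyn (0.95), Lcp1 (0.94), Mpeg1 (0.94) and Slc43a2 (0.93). Those most like Nox4 were Ust (0.94), Apcdd1 (0.93), Crot (0.93), Npr3 (0.92) and Abat (0.92). These r describe shared variation between libraries, which includes depth, cell makeup and the position of Saline 7 and Saline 8, and have no test. Itgb2 encodes a leukocyte integrin and Mpeg1 a pore-forming protein of macrophages. Nox1 has too few reads for such a comparison.

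Other genes of the pathway came from lists chosen by role, and moved in both directions. Of 9 tested oxidases and partners outside the 9 subunits, 1 rose and 1 fell, beside 9.54% and 24.9% of all genes tested. Their median log2 fold change was 0.22, beside -0.12 over all genes tested. Sh3pxd2b, an organizer related to Ncf1 that forms invasive cell protrusions, rose from 12.0 ± 2.58 to 18.0 ± 4.00 FPKM (limma adjusted p = 0.00937). Poldip2, which binds Cyba and raises Nox4 activity in rat smooth muscle, fell from 52.6 ± 12.5 to 39.1 ± 3.06 FPKM (log2 fold change -0.39, limma adjusted p = 0.0192). The call of Poldip2 was lost after median ratio scaling (-0.25, limma adjusted p = 0.175), after quantile normalization (-0.19, limma adjusted p = 0.166) and with the macrophage and monocyte score (-0.35, limma adjusted p = 0.107) or the white adipocyte score (-0.24, limma adjusted p = 0.226). Rac1, the widely expressed GTPase that can serve Nox1 and Cybb, held 80.0 ± 33.2 and 104 ± 17.0 FPKM (log2 fold change 0.50, limma adjusted p = 0.136). Nox3 and Duoxa2 were at 0 in all libraries, and Duox1 and Duox2 had means of at most 0.0114 FPKM.

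Of 20 regulators of oxidase assembly 5 rose and 1 fell (median 0.21), beside 9.54% and 24.9% of all genes tested. Prkca, a protein kinase C, rose from 5.90 ± 2.09 to 10.4 ± 2.03 FPKM (log2 fold change 0.76, limma adjusted p = 0.00371). Prkcd, another protein kinase C, fell from 75.7 ± 19.2 to 51.5 ± 5.63 FPKM (log2 fold change -0.52, limma adjusted p = 0.00696). The call of Prkcd was lost after quantile normalization (-0.32, limma adjusted p = 0.0532) and with the white adipocyte score (-0.35, limma adjusted p = 0.106). The disulphide isomerases P4hb and Pdia3, which mainly fold secreted proteins, rose by 0.56 and 0.67 on the log2 scale (limma adjusted p = 0.000685 and 0.00741). Agtr1a, a receptor of Ang II, held 0.474 ± 0.332 and 0.620 ± 0.123 FPKM (limma adjusted p = 0.358).

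Of 17 tested genes that remove superoxide and peroxide 4 rose and 3 fell (median -0.02), beside 9.54% and 24.9% of all genes tested. The peroxidases of the endoplasmic reticulum Gpx8 and Gpx7 rose, Gpx8 from 65.0 ± 14.5 to 148 ± 19.6 FPKM (log2 fold change 1.20, limma adjusted p = 6.07e-06) and Gpx7 from 32.5 ± 7.72 to 56.1 ± 5.27 FPKM. Aqp1, a channel for water that also passes hydrogen peroxide, rose by 0.82 on the log2 scale. The cytosolic dismutase Sod1 fell from 89.4 ± 15.3 to 58.1 ± 3.54 FPKM (log2 fold change -0.60, limma adjusted p = 0.000265), with all 8 Ang II libraries below every saline library, as in 5.62% of all genes tested. Ccs, the copper chaperone that loads Sod1, fell with -0.64, and Gpx4, which reduces lipid peroxides, with -0.75. Sod3, the extracellular dismutase, held 320 ± 128 and 358 ± 99.6 FPKM (log2 fold change 0.19, limma adjusted p = 0.491).

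Of 10 tested genes listed as other sources of superoxide or peroxide, 3 rose and 0 fell (median 0.005), beside 9.54% and 24.9% of all genes tested. The 3 were Loxl1, a lysyl oxidase that releases hydrogen peroxide as it cross-links elastin (117 ± 33.04 to 163 ± 24.2 FPKM), P4ha1, a prolyl hydroxylase of collagen (24.2 ± 6.18 to 42.2 ± 6.01 FPKM), and the cytochrome P450 gene Cyp2j6 (1.40 ± 0.262 to 2.01 ± 0.463 FPKM). The call of Cyp2j6 was lost without any 1 of 7 libraries (Saline 2, 7 and 8 and Ang II 5, 6, 7 and 8). It was also lost without the filter, with either marker score, with the replicate block and without Saline 7 and Saline 8 (limma adjusted p = 0.0768 to 0.196). P4ha1 is not itself a known source of peroxide. With the white adipocyte score as a covariate, the calls of Sh3pxd2b (0.40), Prkca (0.53), Pdia3 (0.47), Ccs (-0.54) and Loxl1 (0.46) were lost as well (limma adjusted p = 0.0674 to 0.114).

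**Figure D5:**
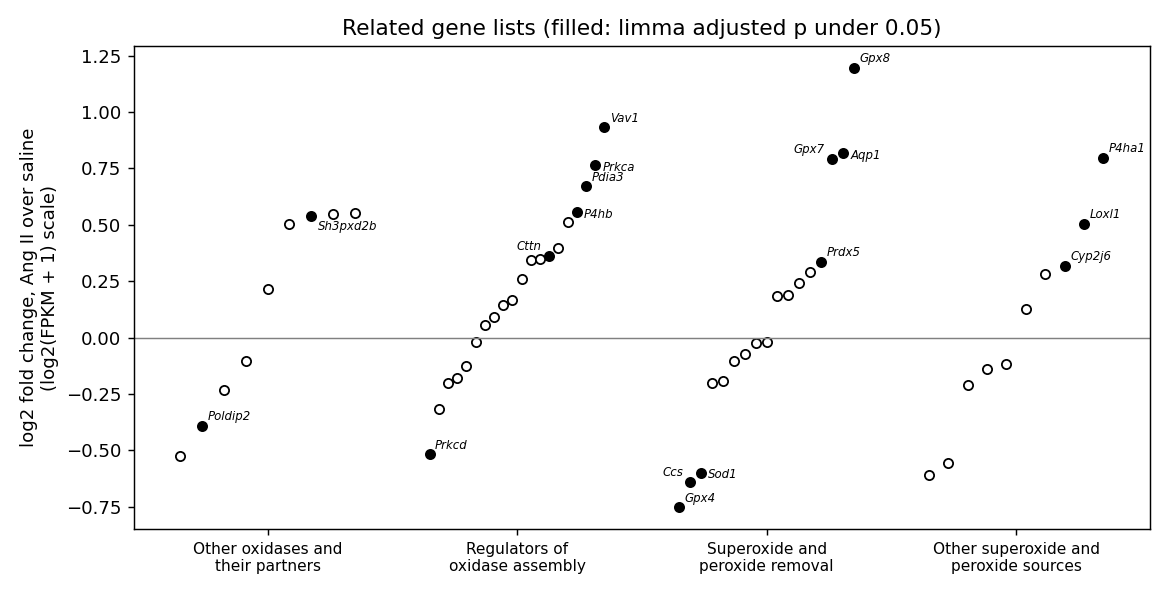
log2 fold change of Ang II over saline on the log2(FPKM + 1) scale (vertical axis) for the tested genes of the 4 related lists, sorted within each list; filled points have a limma adjusted p under 0.05 and carry the gene symbol. Filled points lie on both sides of 0 in 3 lists, from -0.75 for Gpx4 to 1.20 for Gpx8.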

How the data were processed

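Per the labels' protocols, Trizol was used for extraction and a SMARTER mRNA kit for the libraries. The authors deposited 1 table of FPKM for 16 libraries, and the submitters' processing notes name genome build GRCm38. The aligner and the counting tool are not given in the sources. FPKM were scaled back to reads with the mean transcript length of GENCODE M21, rounded down, and 95.8% to 96.3% of the non-zero values were then whole to within 0.02. A different length was found for Noxo1.

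Differences were tested with limma 3.58.1 (R 4.3.3, intensity trend) on log2(FPKM + 1), which understates the change of low genes, for genes with a mean of at least 0.5 FPKM, two-sided, with Benjamini-Hochberg adjustment over all genes. Correlations used Python 3.11.15. In data simulated from the means and spreads of these genes, 67, 67 and 66 genes were changed 1.5-fold, 2-fold and 4-fold. Of those tested, limma recovered 23.8%, 56.1% and 92.2%, with 4 false calls among 14983 genes. Genes were drawn independently, without the differences shared by many genes between libraries, and few were changed, so these figures need not hold for the real data.

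The members and lists were chosen with earlier results of these data known. From each list, up to 3 genes in each direction were named by smallest adjusted p (mean FPKM 1 or more), plus Rac1, Duox1, Duox2, Nox3, Poldip2, Agtr1a and Sod3, and the text gives a selection, with 1 gene of the rule not reported here. Alternatives were another pseudocount, 2 filters, 2 scalings, marker scores as covariates, a replicate block, left-out libraries and, added after seeing the data, limma voom on the recovered reads.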

Additional observations from a re-analysis of the deposited data

Results flagged for a closer look

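A library lay far from the rest of its group for 4 subunit genes. With 17 groups of values screened, chance alone marks about 1 in 20, and 5 values were marked. That rate is for independent groups of normally distributed values. FPKM were screened without a log scale and some marks share a library, so the number marked cannot be set against it. Ang II 1 was far above the other Ang II libraries for Ncf1 (19.96 FPKM), Ncf4 (12.8 FPKM) and Rac2 (16.2 FPKM). It was also highest in the macrophage and monocyte, neutrophil and pan-leukocyte marker sums (717, 134 and 272 FPKM), and their part in these values was not tested. Saline 1 was far above the other saline libraries for Cybb (10.9 FPKM) and highest of that group in the macrophage and monocyte sum (652 FPKM). Saline 6 was far above the other saline libraries for Rac2 (10.7 FPKM), with B cell markers at 40.3 FPKM and the macrophage and monocyte sum at 61.5 FPKM.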

How the results depend on the processing

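Noxo1 kept its fall and its call under every alternative run. Over the members, counts were 2 higher and 2 lower. Without the filter 1 rose and 1 fell (Cyba -0.51, limma adjusted p = 0.0935; Ncf1 1.04, limma adjusted p = 0.113). After median ratio scaling and quantile normalization 1 member fell, with Cyba at -0.36 and -0.29 and Nox4 at 0.11 and 0.16, its sign reversed. With the macrophage and monocyte score 0 rose, with Cybb at 0.44, Ncf1 at 0.079 and Rac2 reversed to -0.22. With the white adipocyte score 0 rose and 1 fell (Cybb 1.16, Cyba -0.40, Ncf1 1.25). Without Saline 7 and Saline 8 together 0 rose and 1 fell (Cybb 0.89, Cyba -0.34, Ncf1 0.85), and with voom 1 rose (Ncf1 1.58, limma adjusted p = 0.0564). The cause of each change was not tested.

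Leaving out 1 library at a time gave 1 to 2 members higher and 1 to 2 lower, with Nox4 at -0.18 to 0.042, Cybb at 1.12 to 1.61, Cyba at -0.59 to -0.40, Ncf1 at 0.73 to 1.20, Ncf4 at 0.44 to 0.77, Noxo1 at -0.90 to -0.74 and Rac2 at 0.48 to 0.99. Of the correlations with the score 5 to 8 were called, with r for Nox4 and Ang II at -0.52 to 0.0027, for Cyba and saline at -0.22 to 0.48, and for Noxo1 at -0.11 to 0.58 with saline and -0.44 to 0.49 with Ang II. The r of Cyba with saline also reversed to -0.0083 with a pseudocount of 0.1 and to -0.0011 after median ratio scaling. Again with 1 library left out, the share of Cybb was 1.595% to 2.48% with saline and 5.38% to 7.37% with Ang II.

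The samples were treated as unpaired: the deviations of same-numbered libraries correlated at -0.25 to 0.39, with 5 of 8 over the 0.1 required of every pair, and 2 of 8 saline libraries matched their own number best. With the replicate block 3 members rose and 1 fell, with Ncf4 at 0.68 (limma adjusted p = 0.0481) and Cyba at -0.51 (limma adjusted p = 0.0623). The SE of Cybb was 0.23 with the block and 0.41 without it.

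Over all genes, 1431 were higher and 3741 lower. These were 2238 and 2114 after median ratio scaling, 2270 and 2374 after quantile normalization, 729 and 1703 with the white adipocyte score, and 808 and 2139 given the macrophage and monocyte score. Leaving out 1 library gave 1177 to 1535 higher and 3235 to 3894 lower. Of the related lists, 13 rose and 5 fell, against 3 lower after quantile normalization, 7 and 3 with the white adipocyte score and 9 lower without Saline 7 and Saline 8, and 10 to 14 and 5 to 7 with 1 library left out. No named gene of the related lists changed direction under these alternatives, though 8 lost their call under at least 1 besides leaving out single libraries. Depth limits Nox1 and Noxa1, at 0 to 4 reads a library.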

Other observations

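Ratios of FPKM between partner subunits were taken within each library, with no test. Nox4 over Cyba, the catalytic subunit and its membrane partner, ran from 0.433 to 2.04 with saline (median 1.46) and from 0.944 to 2.97 with Ang II (median 1.503), with Saline 7 (0.433) and Saline 8 (0.479) lowest of all. Cyba over Cybb ran from 13.3 to 1501 with saline (median 31.4), the latter in Saline 8 with its 2 reads of Cybb, and from 5.18 to 17.3 with Ang II (median 10.8). Ncf1 over Cybb ran from 0.162 to 4.28 with saline (median 0.474) and from 0.222 to 1.01 with Ang II (median 0.332), with Ang II 1 highest of that group. The 4.28 was again Saline 8, with 10 reads of Ncf1 over 2 of Cybb, and the next saline value was 0.913 in Saline 7.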
